A study of Drosophila melanogaster with 3 samples.

Results

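Single-direction promoter peaks with an upstream summit are peaks called for tagged GAGA factor at promoters that face 1 way. Their summit, the position deposited for each peak, lies upstream of a gene's start site. They were taken from the authors' optimal list of 4900 peaks. A peak was kept when its summit lay within 500 bp of at least 1 protein-coding start site, all start sites within that window lay on 1 strand, and the summit fell upstream of the nearest of them. Of the 4900 optimal peaks, 1383 met this rule (28.2%, exact 95% binomial interval 27.0 to 29.5). Another 395 had the summit at or downstream of the nearest start site (downstream-summit peaks), 868 had start sites of both strands within 500 bp (divergent peaks), and 2254 lay farther from any start site.

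The peaks come from ChIP-seq on whole embryos of Drosophila melanogaster, of mixed sex and aged 0 to 24 h, in 3 biological replicates that form 1 group. All embryos carried the Trl-MiMIC-GFP insertion, an eGFP exon placed in an intron of Trl, which yields a Trl-eGFP fusion, and the tagged protein was precipitated with an anti-GFP antibody. No treatment, second genotype or second stage is part of the comparison, and signal from all tissues and all embryonic ages is summed. Peak lists carry no totals of reads, and depth is unknown.

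GAGA factor is the product of Trithorax-like (Trl), a zinc finger protein with a BTB domain that binds runs of alternating G and A and is known for keeping promoters free of nucleosomes, with the heat shock genes as the classic case. Promoters of constitutively used genes in flies often carry other elements, such as the DRE, bound by DREF, and motif 1, bound by M1BP. Genes controlled in space and time more often have promoters with GAGA elements, and many of these hold paused RNA polymerase.

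The sequences below show the kinds of element found under these summits, each as 120 bases of the dm6 reference (RefSeq Release 6 plus ISO1 MT) upstream of a start site, read 5′ to 3′ on the strand of the gene. The first 4 have capitals at every match to GAGAG or its reverse complement CTCTC. CG11151 (chrX:13739547-13739666 (plus strand)), CG9743 (chr3R:30203373-30203492 (minus strand)) and CG4297 (chr2L:472323-472442 (minus strand)) are among the strongest peaks with more than 1 separate match, and Hsp26 (chr3L:9377440-9377559 (minus strand)), a small heat shock protein gene, is a textbook GAGA factor target.
CG11151: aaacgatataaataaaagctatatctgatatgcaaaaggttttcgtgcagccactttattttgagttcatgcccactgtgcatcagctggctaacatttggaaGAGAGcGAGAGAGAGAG
CG9743: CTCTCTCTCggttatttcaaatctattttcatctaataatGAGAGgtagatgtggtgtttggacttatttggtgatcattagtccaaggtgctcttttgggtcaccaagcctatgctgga
CG4297: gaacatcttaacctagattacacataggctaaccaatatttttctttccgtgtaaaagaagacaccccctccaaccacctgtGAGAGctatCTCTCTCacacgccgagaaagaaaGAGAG
Hsp26: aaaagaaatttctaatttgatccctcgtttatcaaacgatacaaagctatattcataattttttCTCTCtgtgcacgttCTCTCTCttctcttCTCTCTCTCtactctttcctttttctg
The last 4 have no GAGAG within 100 bp of the summit. They do not stand for all such peaks: 14 of 86 with the DRE and 13 of 63 with the core of motif 1 hold GAGAG there. In eEF1gamma (chr3R:29220052-29220171 (plus strand)), which encodes a subunit of translation elongation factor 1, and Jwa (chr2L:18705788-18705907 (minus strand)) the capitals mark the DRE, TATCGATA. In lute (chr3R:17385771-17385890 (plus strand)) and RpL27 (chr3R:25685052-25685171 (minus strand)), a ribosomal protein gene, they mark GTGTGACC, the reverse complement of GGTCACAC, the core of motif 1. The RpL27 stretch also holds TATCGATA, left in lower case, so it carries both elements.
eEF1gamma: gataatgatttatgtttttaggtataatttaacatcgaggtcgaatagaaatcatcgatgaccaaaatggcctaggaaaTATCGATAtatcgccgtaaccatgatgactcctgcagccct
Jwa: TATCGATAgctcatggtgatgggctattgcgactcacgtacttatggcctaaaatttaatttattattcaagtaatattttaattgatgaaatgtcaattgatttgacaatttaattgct
lute: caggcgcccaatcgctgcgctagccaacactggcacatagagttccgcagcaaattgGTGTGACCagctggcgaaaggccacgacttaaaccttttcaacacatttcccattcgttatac
RpL27: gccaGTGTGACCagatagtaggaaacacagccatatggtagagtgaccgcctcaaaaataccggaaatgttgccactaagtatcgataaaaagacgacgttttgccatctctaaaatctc
A match is a description of the letters in the window and not a measured site.

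The first question was where these summits lie and how firmly their side of the start site is placed. Most were close to the gene: the median distance was 124 bp upstream, with quartiles at 58 and 233 bp, and 57.4% lay within 150 bp. Counts per 50 bp fell from 297 peaks nearest to the start site to 42 peaks between 451 and 500 bp. Downstream-summit peaks were nearer still, with a median of 64 bp and 42.0% within 50 bp, against 21.5% of the upstream-summit peaks. Taking the top 4900 peaks of each replicate alone and applying the same rule gave 1356, 1337 and 1348 peaks (1347 ± 9.54, SD, n = 3) with median distances of 127, 136 and 127 bp (130 ± 5.20, SD, n = 3).

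The summit lay upstream in all 3 replicates at 1175 of the 1383 peaks (85.0%, exact 95% interval 83.0 to 86.8). Replicates 1, 2 and 3 placed 1291, 1284 and 1305 of them upstream, and 76, 76 and 59 on the downstream side. Agreement between replicates depended on distance. It held at 53 of 132 peaks whose pooled summit lay 1 to 25 bp from the start site (40.2%, 31.7 to 49.0), at 121 of 165 from 26 to 50 bp, at 245 of 287 from 51 to 100 bp, and at 756 of 799 beyond that (94.6%, 92.8 to 96.1). The 3 replicate summits of a peak spanned a median of 48 bp. The replicates entered the pooled call, so this is no independent check. A further limit is that the deposited summit was the exact middle of the interval at 77.7% of these peaks, as at 79.1% of all optimal peaks.

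Individual peaks show both ends of this range. The Ugalt summit, beside the gene for a UDP-galactose transporter, lay 33, 32 and 37 bp upstream in replicates 1, 2 and 3. The peak of RpL24, a ribosomal protein gene, had its pooled summit 8 bp upstream and replicate summits 12 and 5 bp upstream and 10 bp downstream, so its class rests on a few bases. Glut4EF, which encodes a transcription factor, had the widest spread: its replicate summits lay 36 and 257 bp downstream and 97 bp upstream, a span of 354 bp. The next widest were stv, which encodes a co-chaperone, with 350 bp, and SNF4Agamma, which encodes the gamma subunit of AMP-activated kinase, with 343 bp.

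Members at the edges of the rule were Ccz1 and EMC4, each with a summit 1 bp upstream, and E(spl)m3-HLH and Pcyt1, each with a summit 500 bp upstream. Just outside lay the peaks of Sry-delta and Pdk1, with summits on the start site itself, and those of fzr and hebe, at -501 and -502 bp, where a minus sign marks positions before the start site.

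**Figure D1:**
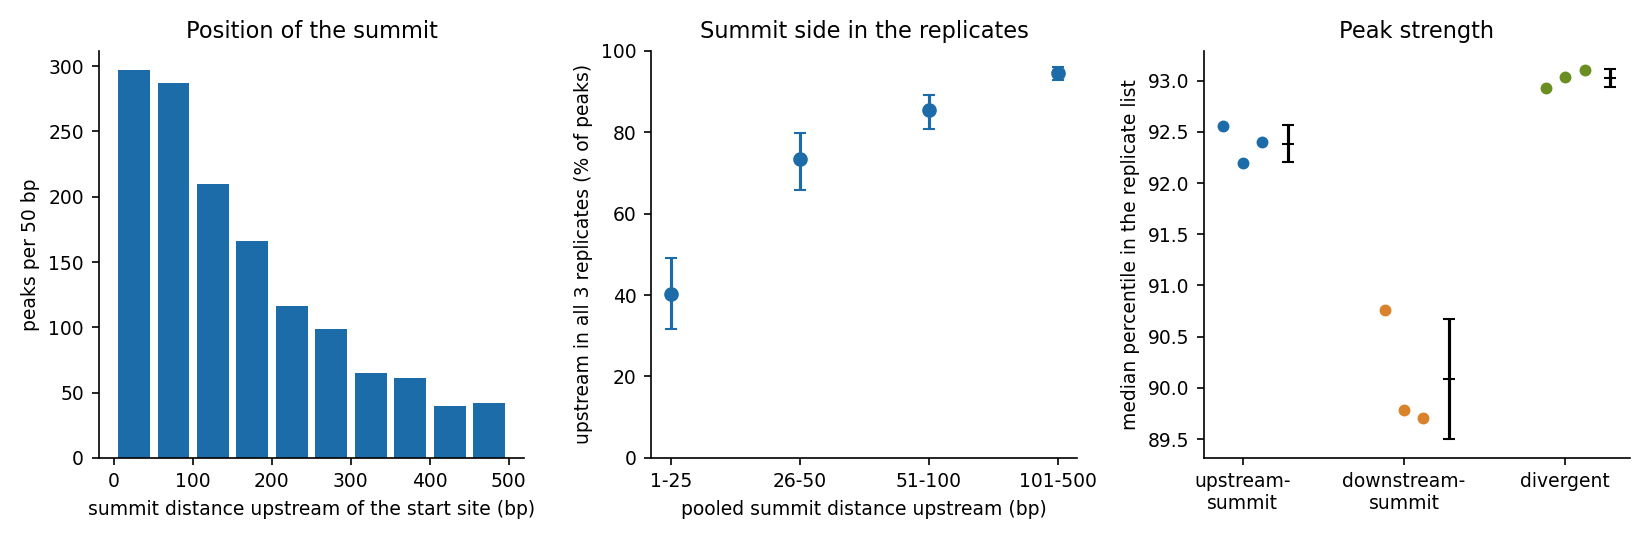
Left, number of upstream-summit peaks in each 50 bp of distance from the start site. Centre, percent of these peaks with an upstream summit in all 3 replicates by pooled distance, with exact 95% binomial intervals: 40.2% at 1 to 25 bp and 94.6% beyond 100 bp. Right, median percentile of 3 classes of promoter peaks in each replicate list (points) with mean and SD (black), on an axis that does not start at 0.

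The peaks were spread over 1227 nearest genes, which is 8.8% of the 13945 protein-coding genes, and over 1325 start sites. Most genes had 1 such peak (1100 genes), 106 had 2 and 21 had 3 or more. RapGAP1, which encodes a GTPase-activating protein for Rap1, and Rtnl1, which encodes the endoplasmic reticulum protein reticulon, had 5 each at different start sites or distances. The share of genes with such a peak ran from 8.33% on arm 3R to 9.47% on X, and was 6.25% on the small chromosome 4. Although upstream of the nearest start site, 477 summits (34.5%) lay inside the annotated span of the same gene, because another of its transcripts starts farther out, and 128 lay inside another gene. By annotation 778 summits (56.3%) were intergenic, 450 (32.5%) intronic and 84 in a 5' UTR. The next gene upstream was on the same strand for 776 peaks, at a median of 4829 bp, and on the other strand for 607, at a median of 2707 bp. At 91 peaks (6.58%) the start of a noncoding gene also lay within 500 bp, so "single direction" refers to protein-coding genes.

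Upstream-summit peaks had a median strength between those of the other classes of promoter peaks. Strength was read as the percentile of the matching peak in each replicate list of 30000, where higher is stronger. The medians were 92.6, 92.2 and 92.4 in replicates 1, 2 and 3 (92.4 ± 0.181, SD, n = 3), against 90.8, 89.8 and 89.7 for downstream-summit peaks and 92.9, 93.0 and 93.1 for divergent peaks. In every replicate the upstream-summit median was above the downstream-summit one, by 1.79, 2.41 and 2.70 points (2.30 ± 0.463), and below the divergent one, with differences of -0.38, -0.84 and -0.70 points. The exact sign-flip permutation test over the 3 replicates (two-sided) gave p = 0.25 for both, the smallest it can give. In the stronger peaks of the optimal list the mean differences were 0.55 and -0.19 points, the latter not of 1 sign in all replicates (exact permutation p = 0.5), and with a promoter window of 250 bp the difference from divergent peaks was -1.18 points. Against downstream-summit peaks it was 1.49 points with a window of 1000 bp, and against divergent peaks it was -0.24 points for summits at least 50 bp from the start site. Over the 1383 peaks Spearman's rho of percentile and distance upstream was 0.0716, 0.120 and 0.0893 in replicates 1, 2 and 3. It is given as a description since the points share libraries, and it does not capture a rise followed by a fall. By summit distance the median percentile was 91.1 ± 0.497 at 1 to 50 bp and 94.0 ± 0.119 at 151 to 200 bp (SD, n = 3). Farther out it was 90.3 ± 0.469 at 401 to 450 bp and 91.9 ± 0.831 at 451 to 500 bp.

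Of the 100 strongest optimal peaks, 35 were upstream-summit promoter peaks (exact binomial interval 25.7 to 45.2%). This interval includes 28.2%, the share of such peaks among all optimal peaks. Among the top 490 optimal peaks the share was 32.9% (28.7 to 37.2). After Ugalt the strongest were those of CG14100, CG1888 and the Polycomb group gene ph-p, with summits 96, 233 and 480 bp upstream. They were followed by px, a wing vein patterning gene (2R from 22514091 to 22514521, dm6, in an intron annotation, 206 bp upstream), mRpL41, a mitochondrial ribosomal protein gene (2R from 15217554 to 15217996, 137 bp upstream), and CG13921. Next came larp, which encodes a La-related RNA-binding protein (3R from 28326377 to 28326797, 342 bp upstream), Sox14, which encodes an HMG-box transcription factor (2R from 23978377 to 23978753, 268 bp upstream), Rtnl1, eIF6 and CG18549. Within 100 bp of the summit GAGAG was present at px and CG18549 and absent at the other 10 of these 12 peaks. The eIF6 peak, at the gene for a factor that keeps the large ribosomal subunit from joining too early, held the DRE. In the replicate lists all 12 lay above the 99.8 percentile on average, and the replicate summits of each spanned from 5 to 36 bp.

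The next question was which elements lie under these summits. GAGAG, the core of the GAGA factor site, was present on either strand within 100 bp of 585 of the 1383 summits (42.3%, exact 95% interval 39.7 to 45.0), while all optimal peaks together had it at 32.6%. Runs were common: 377 peaks held at least 2 matches, 154 at least 5 and 42 at least 10, counting overlapping matches. GstS1, a glutathione S-transferase gene, and CG13506 had the most, with 21, and ush, which encodes a cofactor of GATA factors, had 19. The longer run GAGAGAG, which contains GAGAG, stood at 267 peaks (19.3%), with 11.2% over all optimal peaks. The DRE was present at 86 (6.22%, with 4.55% over all optimal peaks), GGTCACAC at 63 (4.56%, with 3.16%), the E-box CAGCTG at 165 (11.9%, with 11.1%) and the Zelda site CAGGTAG at 11 (0.795%, with 1.1%). TATAAA was present at 22.6%, with 26.1% over all optimal peaks, and TCAGT, the core of the initiator, at 35.9%, with 35%.

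Within 100 bp of the summit, upstream-summit peaks held GAGAG more often and the DRE less often than divergent peaks. At divergent peaks GAGAG was present at 16.5%, which is 25.8 percentage points lower (95% Newcombe interval 22.2 to 29.3), and GAGAGAG at 1.73%. The DRE was the other way round, at 13.2% of divergent peaks, a difference of -7.03 points (-9.71 to -4.51), as was GGTCACAC, at 7.49%, with a difference of -2.93 points (-5.11 to -0.94). In the replicates' own top 4900 peaks GAGAG stood at 42.5%, 39.6% and 42.2% of upstream-summit peaks and at 15.9%, 16.7% and 16.1% of divergent peaks. The same lists held the DRE at 6.64%, 5.53% and 5.86% of upstream-summit peaks and at 13.3%, 13.0% and 12.7% of divergent peaks, so neither pair of ranges overlapped. By Fisher's exact test (two-sided, Benjamini-Hochberg over 24 tests) the adjusted p was 1.78e-38 for GAGAG, 7.57e-08 for the DRE and 0.00894 for GGTCACAC. CAGCTG and TATAAA were also less frequent at upstream-summit than at divergent peaks (differences of -6.50 and -11.43 points, Fisher's exact adjusted p = 6.36e-05 and 1.73e-08), and TCAGT was more frequent (7.06 points, adjusted p = 0.00122). These tests treat neighbouring peaks as independent, and intervals and tests over peaks cover counting error only. The windows follow the summit, whose distance from start sites was not matched between the classes. Among upstream-summit peaks the DRE share was 11.4% for summits 1 to 50 bp upstream and 1.20% at 151 to 200 bp. No window fixed on the start site was counted at divergent peaks, and an effect of distance on these differences was not tested.

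The TCAGT difference did not pass the threshold with a promoter window of 250 bp (Fisher's exact adjusted p = 0.0525), 1 start site per gene (0.0873) or a motif window of 50 bp (0.0808), and the CAGCTG difference did not pass it with the last of these (0.0808). The GGTCACAC difference did not pass the threshold with a promoter window of 250 bp (Fisher's exact adjusted p = 0.438), 1 start site per gene (0.199) or a motif window of 50 bp (0.0895). Over its alternatives its adjusted p by that test ran from 3.18e-08 to 0.438.

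Against downstream-summit peaks, 0 of 8 motifs passed the threshold by Fisher's exact test after adjustment, and 1, TATAAA, had an unadjusted p under 0.05. GAGAG was present at 39.7% of those, a difference of 2.55 points with an interval from -2.99 to 7.94 (Fisher's exact adjusted p = 0.463), and the replicates gave 5.53, -1.78 and -0.65 points. The DRE differed by 2.42 points (-0.22 to 4.46, Fisher's exact adjusted p = 0.125), GAGAGAG by 4.37 points (0.03 to 8.21, adjusted p = 0.0881) and TATAAA by 5.09 points (0.52 to 9.21, adjusted p = 0.0533). Several of these differences passed it under other settings. The DRE did so under 5 alternatives (2.95 to 3.66 points), TATAAA under 4 (5.74 to 9.76 points), GAGAGAG under 3 (5.36 to 6.36 points), GAGAG in the top peaks of replicate 1 alone (5.53 points), CAGCTG with a motif window of 250 bp (-6.37 points) and TCAGT with a promoter window of 250 bp (-6.37 points). With 1 start site per gene GAGAG turned to -3.24 points and GAGAGAG to -1.40 points. The intervals leave room for differences of several points, so the classes are not shown to be alike.

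**Figure D2:**
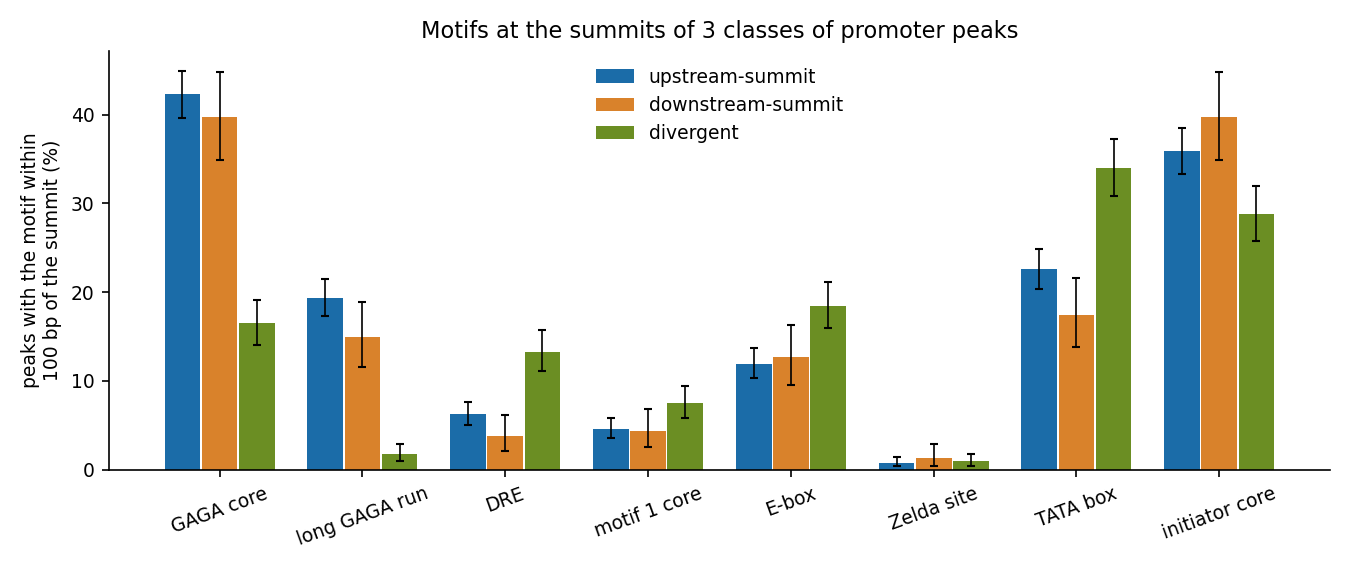
Percent of peaks with each of 8 motifs within 100 bp of the summit at upstream-summit (1383), downstream-summit (395) and divergent (868) promoter peaks, with exact 95% binomial intervals. The GAGA core and the long GAGA run are lower at divergent peaks, at 16.5% and 1.73%, and the DRE is higher there, at 13.2%.

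GAGAG and the DRE mostly marked different peaks. Among the 86 peaks with the DRE, 14 also held GAGAG (16.3%, exact 95% interval 9.20 to 25.8), while 571 of the other 1297 did (44.0%, 41.3 to 46.8). With GGTCACAC the shares were 13 of 63 (20.6%) and 572 of 1320 (43.3%). Sorted by sequence, 560 peaks had GAGAG without the DRE or GGTCACAC, 114 had the DRE or GGTCACAC without GAGAG, 25 had GAGAG with one of these, and 684 (49.5%) had none of the 3. Peaks with only the DRE or GGTCACAC sat closest to the gene, at a median of 56.5 bp upstream, while those with only GAGAG sat at 135.5 bp and those with none at 140 bp. Counts of the DRE by 50 bp of summit distance were 34, 26 and 17 within 150 bp, and 9 in all beyond it. Median percentiles of the 4 kinds were 92.1 ± 0.423 with only GAGAG, 91.7 ± 0.527 with only the DRE or GGTCACAC, 90.5 ± 1.61 with both kinds and 92.7 ± 0.121 with none (SD, n = 3). Peaks with none were above those with only GAGAG in replicates 1, 2 and 3, at 92.8, 92.7 and 92.6 against 92.4, 91.65 and 92.3. No test was made of this difference.

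The peaks were also split by deposited signal into 4 groups of nearly equal size. From the strongest to the weakest, GAGAG was present at 39.6%, 41.3%, 46.0% and 42.3%, and in the replicates' own lists at 37.97 ± 2.64%, 41.3 ± 1.45%, 44.9 ± 1.89% and 41.6 ± 2.36% (SD, n = 3), a range of the size of a few SD and without a steady order. GGTCACAC was present at 2.31%, 4.34%, 4.62% and 6.96%. The median distance upstream was 153.5, 117.5, 122.5 and 103 bp.

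The same motifs were counted in a window fixed on the start site, which does not move with the summit. From 250 bp before to 50 bp after the start site, GAGAG was present at 706 of the 1325 start sites of upstream-summit peaks (53.3%, exact 95% interval 50.6 to 56.0) and at 2601 of 8559 single-direction start sites without an optimal peak (30.4%, 29.4 to 31.4). Over all protein-coding promoters, 1 per gene, it was present at 29.7%. GAGAGAG was present at 24.2% and 5.42%, with 5.87% over all promoters. The replicates' own lists gave GAGAG at 53.2%, 51.8% and 53.9% of bound start sites and at 30.6%, 30.6% and 30.5% of the others. The differences of 22.9 points (20.03 to 25.7) and 18.8 points (16.5 to 21.2) had adjusted p of 1.71e-56 and 2.28e-89 by Fisher's exact test over the same 24 tests. The groups were not built alike: bound start sites could be those of any transcript, the others were the outermost of each gene. With 1 start site per gene in both, GAGAG was present at 44.8% and 30.8% (14.0 points), and GAGAGAG differed by 12.2 points. With a promoter window of 250 bp the GAGAG difference was 15.8 points.

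Other motifs differed less in this window. The DRE was present at 7.70% of start sites of upstream-summit peaks and 5.53% of those without a peak (Fisher's exact adjusted p = 0.00483), GGTCACAC at 7.25% and 4.32% (adjusted p = 2.71e-05), and CAGCTG at 19.5% and 14.2% (adjusted p = 2.89e-06). Over all protein-coding promoters, which include divergent ones, the shares were 9.36%, 7.7% and 17.7%, so the DRE and GGTCACAC were more frequent only against single-direction start sites without a peak. TATAAA was less frequent at the bound start sites, at 33.4% against 46.3% (Fisher's exact test, adjusted p = 4.11e-18), with 45.8% over all promoters. CAGGTAG was present at 1.36% and 1.86%, with 1.64% over all promoters, and TCAGT at 53.4% and 54.3%, with 51.5% over all, and neither difference passed the threshold (Fisher's exact adjusted p = 0.296 and 0.679). Among the stronger peaks of the optimal list the DRE difference was 1.27 points and did not pass it (Fisher's exact test, adjusted p = 0.246).

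At the positions where core promoter elements act, examined after the values above had been seen, TATAAA from 40 to 21 bp before the start site was present at 32 of 1325 start sites of upstream-summit peaks (2.42%), 2.28% of those of downstream-summit peaks and 8.79% of those without a peak. TCAGT from 7 bp before to 7 bp after the start site was present at 16.5%, 15.7% and 11.6%.

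GAGAG was most frequent in a narrow zone before the start site. In steps of 20 bp its share at upstream-summit start sites was 4.23% from -500 to -481 bp, reached 15.3% (exact 95% interval 13.4 to 17.4) from -100 to -81 bp and 15.1% from -80 to -61 bp, and was 3.70% in the last 20 bp before the start site. Start sites without a peak had 3.996% and 4.07% in the 2 steps where the share was highest, and 2.09% from -500 to -481 bp. They therefore showed a rise toward the same zone, at lower shares. Start sites of downstream-summit peaks also had their highest value upstream, 11.1% (8.21 to 14.7) from -80 to -61 bp, although their summits lay inside the gene.

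**Figure D3:**
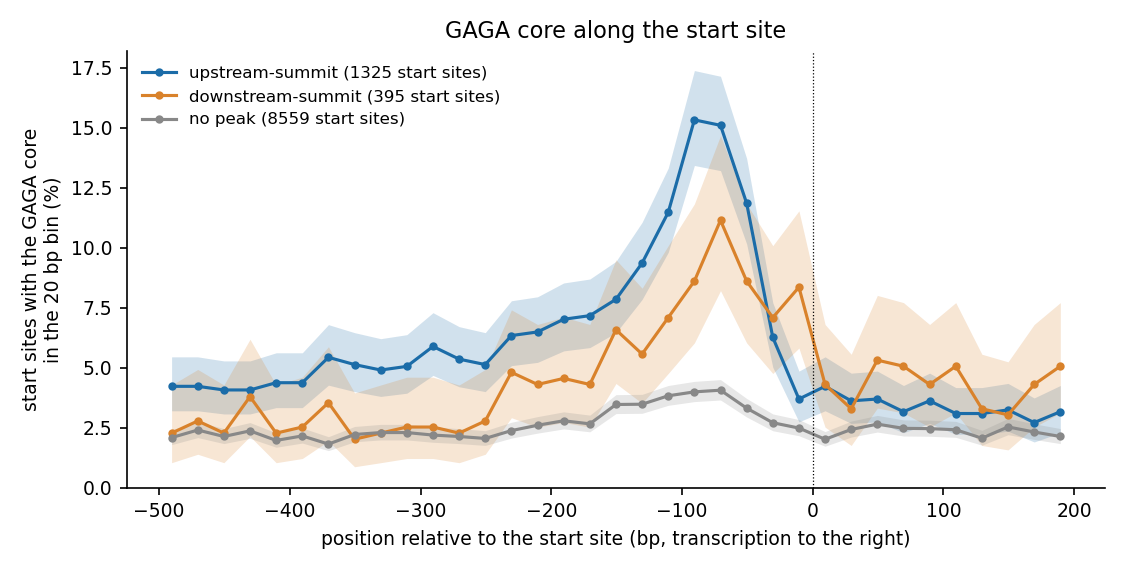
Percent of start sites with the GAGA core on either strand in each 20 bp bin, from 500 bp before to 200 bp after the start site, with exact 95% binomial bands. The highest value for upstream-summit peaks is 15.3%, for downstream-summit peaks 11.1% and for start sites without a peak 4.07%.

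This zone held GAGAG at a minority of start sites in each summit group, but more often than without a peak. The comparison was added after the first results had been seen. From -100 to -41 bp GAGAG was present at 24.9% of start sites with a summit 1 to 50 bp upstream, 25.4% at 51 to 100 bp, 33.8% at 101 to 200 bp, 27.0% at 201 to 300 bp and 34.1% at 301 to 500 bp. Start sites without a peak had 9.58%. For the farthest summits this zone is at least 200 bp from the summit. A start site with more than 1 upstream-summit peak, such as that of Hsp26, could count in more than 1 group. Another summit can therefore lie in or near the zone. From -300 to -201 bp the shares rose from 13.1% (9.51 to 17.5) for the nearest summits to 27.9% (23.4 to 32.8) for those at 101 to 200 bp and 24.7% for those at 201 to 300 bp, and in the last 40 bp they stayed between 8.75% and 10.7%, with 5.05% without a peak.

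**Figure D4:**
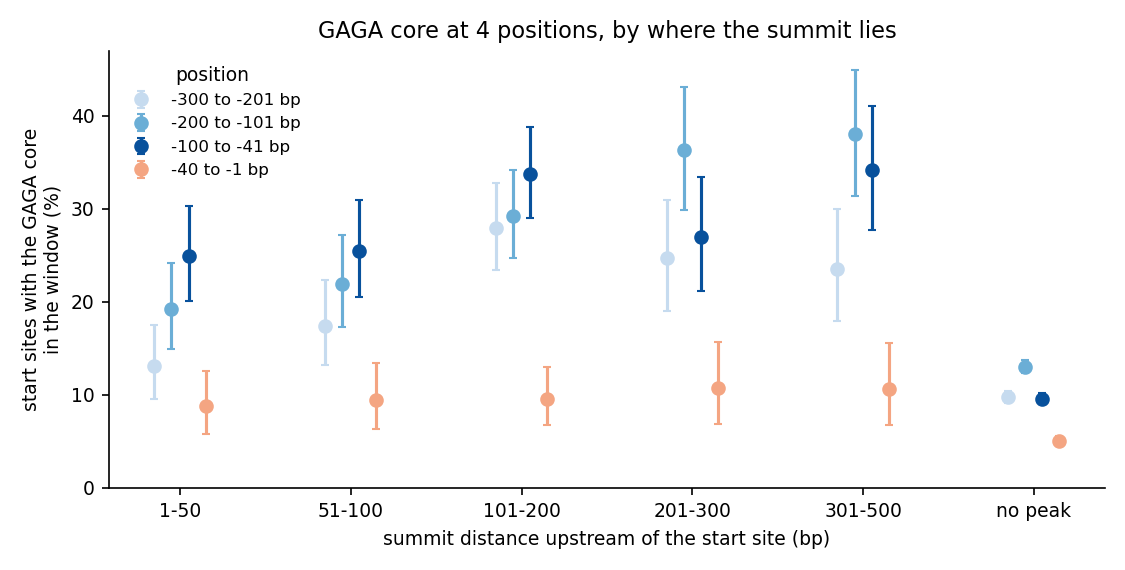
Percent of start sites with the GAGA core in 4 windows before the start site (colours, windows of unequal width), by distance of the summit upstream, and at start sites without a peak, with exact 95% binomial intervals. The window from -100 to -41 bp holds it at 24.9% to 34.1% in all 5 summit groups and at 9.58% without a peak.

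Around the summit itself the matches lay close and on both sides. Of the 585 peaks with GAGAG, 250 (42.7%) had a match within 25 bp of the summit and 391 (66.8%) within 50 bp, with a median of 33 bp. The nearest match was on the start site side at 277 (47.4%, exact 95% interval 43.2 to 51.5). On the coding strand, 972 of 2117 matches read GAGAG (45.9%, 43.8 to 48.1) and 1145 read CTCTC. The replicates' own lists gave 44.5%, 44.0% and 47.5%. With 1 start site per gene the share was 50.5%, so no strand preference held under that choice, and matches within 1 run are not independent.

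The genes behind these peaks were described through 21 lists, read against the 8.8% of all protein-coding genes with an upstream-summit peak. Cytosolic ribosomal protein genes had one at 25 of 86 (29.1%, exact 95% interval 19.8 to 39.9) and translation factor genes at 9 of 51 (17.6%, 8.40 to 30.9). Ecdysone response genes had one at 5 of 14, segment polarity genes at 4 of 12, Polycomb group genes at 6 of 19, actin and muscle genes at 5 of 19 and trithorax group genes at 5 of 20. Among the shorter lists, early factor genes had one at 3 of 10, gap and maternal genes at 3 of 13, the pair-rule list at 2 of 10, the dorsoventral and Dpp list at 3 of 21 and Hox genes at 1 of 8. Heat shock genes had one at 5 of 28, nucleosome remodeller genes at 2 of 13, insulator and architectural genes at 2 of 19, Rab genes at 3 of 32 and proteasome genes at 1 of 32. Mitochondrial ribosomal protein genes had one at 2 of 73 (2.74%, 0.33 to 9.55) and oxidative phosphorylation genes at 2 of 86. Of these 2 lists, 32 and 18 genes were at divergent peaks, where 11.9% of all protein-coding genes were. Cuticle protein genes (0 of 117, upper limit 3.10%) and odorant and gustatory receptor genes (0 of 119, upper limit 3.05%) had no upstream-summit peak. Over all classes, 22.9% of protein-coding genes had a start site within 500 bp of any optimal summit. Such genes numbered 67 in the cytosolic ribosomal protein list (31 at divergent peaks), 22 among translation factors, 11 in the Polycomb and 14 in the trithorax group. The frequency of these 4 lists is therefore not particular to upstream-summit peaks. The counts were 7 for ecdysone response, 6 for actin and muscle and 4 for segment polarity genes. No test was made of these lists.

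The lists differed in what lay under the summit. Only 3 of the 25 ribosomal protein genes had GAGAG within 100 bp, and 9 had the DRE or GGTCACAC. RpL23A, RpL24, RpL22 and RpL11, the strongest of them, had none of the 3 elements, with summits 103, 8, 46 and 69 bp upstream. Among translation factors, eIF6 and eEF1gamma held the DRE, eEF1alpha1 held GGTCACAC, and eIF3c, a subunit of initiation factor 3, was the 1 gene with GAGAG. The single proteasome gene, Rpn11, the respiratory complex I genes ND-B17 and ND-B22, the 3 Rab GTPase genes Rab18, Rab5 and Rab1, and the mitochondrial ribosomal protein genes mRpL41 and mRpL4 had no GAGAG. RpL10, mRpL1, Prosalpha1 and Rab10 are examples with no upstream-summit peak.

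Most patterning and hormone response genes with an upstream-summit peak had GAGAG there, at 20 of 21, against 43.7% of all genes with such a peak. The 5 ecdysone response genes with a peak all held it, among them E23, which encodes an ABC transporter, and the nuclear receptor genes ftz-f1, Hr3 and EcR, with 3, 10, 4 and 2 matches at their strongest such peaks. So did the 4 segment polarity genes with a peak: ptc, which encodes the Hedgehog receptor, with 8 matches, nkd, a Wnt antagonist gene, with 1, and the transcription factor genes inv and mid with 8 and 7. The maternal gene bcd and the gap genes btd and ems held 1, 9 and 2 matches, and the Hox gene Abd-B held 1. Both genes of the pair-rule list, Ptx1 and hbn, are homeobox genes outside the classical pair-rule set and held 11 matches each. Of the dorsoventral and Dpp list, tkv, a Dpp receptor gene, and brk, a repressor of Dpp targets, held 8 each, and pyr, an FGF gene, held none. The GATA factor genes pnr and grn and their cofactor gene ush held 4, 1 and 19. Examples with no upstream-summit peak are Antp, Kr, eve, arm, Doc1 and Eip74EF.

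Taken over both kinds of list, a grouping made after the values had been seen, GAGAG was at 4 of 42 genes with an upstream-summit peak in the ribosome, translation, proteasome, respiration and Rab lists (9.52%, exact 95% interval 2.66 to 22.6). It was at 20 of 21 such genes in the patterning, hormone and early factor lists (95.2%, 76.2 to 99.9), and at 536 of all 1227 genes with such a peak (43.7%). The DRE or GGTCACAC was at 15 of the 42 and 1 of the 21, the latter being pnr. Median summit distances were 51.5 and 144 bp. The median percentiles were 96.2, 95.2 and 95.8 in replicates 1, 2 and 3 for the former and 93.9, 92.1 and 92.7 for the latter (95.7 ± 0.497 and 92.9 ± 0.925, SD, n = 3). The former value was higher in every replicate, but 25 of the 42 genes were cytosolic ribosomal protein and 9 translation factor genes. Of the others, Rab18, Rab5, Rab1, Rpn11 and ND-B22 had lower means than 92.9, at 89.0, 87.0, 83.1, 90.2 and 84.1. The means of mRpL41, mRpL4 and ND-B17 were higher, at 99.96, 97.0 and 93.9.

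Chromatin genes were mixed. All 5 trithorax group genes held GAGAG at 1 of their upstream-summit peaks or more, including Trl itself, with 3 matches at a peak 247 bp upstream of 1 of its start sites, skd, a Mediator subunit gene, with 9, and kis, a chromatin remodeller gene, with 3. The lola gene, which encodes a family of BTB transcription factors, had 1 peak without GAGAG 282 bp upstream and 1 with 9 matches 110 bp upstream. Of 6 Polycomb group genes, 3 held it, among them Kdm2 and Su(z)2 with 3 matches each, and the strong ph-p peak held none. The remodeller list had kis and dre4, which encodes a FACT histone chaperone subunit and had no GAGAG at its peak. The insulator protein gene BEAF-32 and the cohesin gene SMC1 had peaks without GAGAG. All 5 actin and muscle genes held it at a peak, among them Tm1, which encodes tropomyosin, with 4 and how, an RNA-binding protein gene, with 3.

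**Figure D5:**
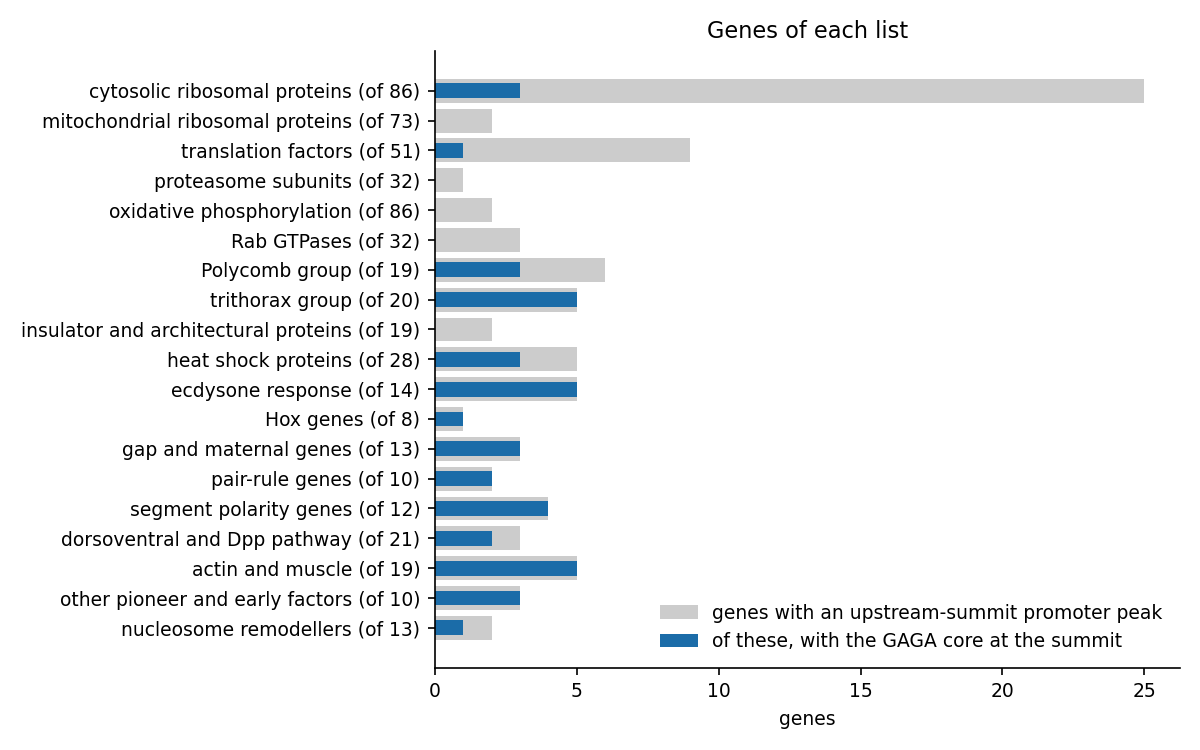
Number of genes of each list with an upstream-summit promoter peak (grey) and, of these, with the GAGA core within 100 bp of a summit (blue), for the 19 lists with at least 1 such gene. List sizes are in parentheses, and 3 of 25 ribosomal protein genes but 5 of 5 ecdysone response genes hold the core.

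Heat shock genes had GAGAG at 3 of the 5 genes with an upstream-summit peak. Hsp83, the Hsp90 gene, and Hsp27 had strong peaks without GAGAG within 100 bp, at the 99.4 ± 0.241 and 99.1 ± 0.184 percentiles (SD, n = 3), while Hsc70-3, an endoplasmic reticulum chaperone gene, held 7 matches at a peak in the 91.3, 94.7 and 80.4 percentiles of replicates 1, 2 and 3. Hsp26 had 2 upstream-summit peaks, printed in part above, with pooled summits 72 and 272 bp upstream and 6 and 3 matches. In replicates 2 and 3 both took the same replicate peak, with summits at -141 and -134 bp, and only replicate 1 listed separate ones, at 72 and 272 bp, so these data do not place them apart in every replicate.

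Single peaks differed in how steady they were between replicates. The Abd-B peak lay at the 89.9, 84.7 and 38.5 percentiles of replicates 1, 2 and 3, the EcR peak at 69.6, 57.9 and 93.2, and the ND-B22 peak at 70.0, 92.2 and 90.2. By contrast RpL23A lay at 99.8, 99.7 and 99.6, ush at 98.3, 98.6 and 99.1 and ptc at 96.2, 96.5 and 97.5. The ranges of the first 3 genes overlap, while RpL23A lay above ush and ush above ptc in each replicate.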

How the data were processed

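The authors deposited peak lists on dm6: an optimal list that passed an IDR threshold (irreproducible discovery rate) and a relaxed list of 30000 peaks for each of the 3 biological replicates, which the deposited notes describe as input for IDR. Chromatin was sonicated to 200 to 800 bp, per the labels. The peak signal is the authors' deposited value on a scale not stated, used only for ranks within a list, and the summit is their deposited offset. The labels name neither an aligner nor a caller. The pooled and dm3 lists were not used. Since lists hold no read totals, depth is unknown.

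Start sites were those of protein-coding transcripts in Ensembl release 115 (dm6 coordinates, 6 arms, 19607 start sites). Bases came from the RefSeq dm6 reference. A replicate peak matched when it overlapped by at least 1 bp, the nearest summit being taken. Motifs were exact letters on either strand within 100 bp of the summit, or from 250 bp before to 50 bp after the start site. Classes were compared by Fisher's exact test (threshold 0.05, adjusted over 24 tests), percentiles by an exact sign-flip permutation test. Intervals are Clopper-Pearson at 95%, or Newcombe for differences. Python 3.11.15, numpy 2.4.6, pandas 2.3.3, scipy 1.17.1 and statsmodels 0.14.6 were used, and the code was tested on simulated data.

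The members and gene lists were chosen with earlier results of these data known. Between 0 and 4 symbols of each list did not match the annotation. Genes were named by a rule: the 12 strongest peaks, up to 4 per list with and 2 without a peak, the 3 widest replicate spans, and the edges of the rule. GstS1, CG13506, RapGAP1 and the second lola and Hsp26 peaks were named after their values were seen. Alternatives varied the promoter and motif windows, the start sites, the peak set, the matching of replicates and the replicates used.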

Additional observations from a re-analysis of the deposited data

How the results depend on the processing

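Of 309 recomputed values, 248 kept their direction and their side of the threshold, stayed within the error of the main value or, for the number of peaks, within 1.5 times of it. Part of these could hardly change. Start sites of all transcripts gave the main values again, and keeping 1 row per interval removed no member. The percentile differences could not pass the threshold, since the smallest p of the sign-flip permutation test is 0.25. The count is therefore no measure of how stable the results are. The number of peaks was 976 with 1 start site per gene and 742 in the stronger part of the optimal list. The median distance was 86 bp with a promoter window of 250 bp, 160 bp with 1000 bp, 111 bp with 1 start site per gene, 136 bp in the stronger peaks and 136 bp in the top peaks of replicate 2. The share upstream in all replicates was 76.8%, 87.8% and 90.0% for the 250 bp window, the 1000 bp window and the stronger peaks, and 79.0% with replicate summits within 100 bp. Leaving out 1 replicate gave 88.3% to 89.01%, since fewer summits then have to lie upstream. The share of GAGAG on the coding strand was 50.5% with 1 start site per gene, 40.8% in the stronger peaks and 42.7% with a motif window of 50 bp.

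Against divergent peaks, GGTCACAC differed by -1.17 points at a promoter window of 250 bp, -1.77 with 1 start site per gene and -1.40 at a motif window of 50 bp, none past the threshold. Against start sites without a peak, the DRE differed by 1.27 points in the stronger peaks, also not past it. Against downstream-summit peaks, the DRE passed the threshold with 3.66 points (250 bp), 3.13 (1000 bp), 3.63 (summits at least 50 bp from the start site), 3.51 (replicate 1) and 2.95 (replicate 3). GAGAG there passed it in replicate 1 with 5.53 points and turned to -3.24 with 1 start site per gene, -1.78 in replicate 2 and -0.65 in replicate 3. GGTCACAC turned to -1.23 with 1 start site per gene, -1.19 in the stronger peaks and -0.12, -0.88 and -0.46 in replicates 1, 2 and 3, and GAGAGAG to -1.40 with 1 start site per gene. None of these turned values was past the threshold before or after.

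Other differences, small and not past the threshold at the main settings, also changed sign. Against downstream-summit peaks, CAGCTG gave 0.34 points at 1000 bp and 0.79 at a motif window of 50 bp, TCAGT gave 5.23 in the stronger peaks, and CAGGTAG gave 0.25 and 0.18 at motif windows of 50 and 250 bp, 0.14 for summits at least 50 bp away and 0.0499 in replicate 1. Against divergent peaks, CAGGTAG gave 0.12 at 1000 bp, 0.0453 and 1.01 at motif windows of 50 and 250 bp, 0.0838 for summits at least 50 bp away and 0.29 in replicate 1. TCAGT gave 0.27 points against start sites without a peak in the window ending at the start site. The causes were not tested. No paired analysis was possible between groups of samples because the study has 1 group; peak classes were compared within replicates.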
